A study of Mus musculus with 24 samples.

Results

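The 5 genes described here, Ube2o, Ube2e3, Ube2l6, Ube2h and Ube2r2, encode ubiquitin-conjugating enzymes of maturing mouse red cells. They were taken by name, as every array probe annotated to one of the 5 symbols. Of the 25697 probes on the array, which carry 16593 gene names, 5 met this rule: 1 each for Ube2o, Ube2l6 and Ube2r2 and 2 for Ube2e3. No probe annotated to Ube2h was among those analysed here, so its level was not analysed here. All 5 probes were detected often enough to be tested, along with 6307 others.

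Ubiquitin is activated by an E1 enzyme, handed to a conjugating enzyme (E2) and then passed, with the help of a ligase (E3), to the protein to be tagged. Reticulocytes have lost their nucleus but still hold RNA and ribosomes, and they use this system and the proteasome to clear ribosomal and other proteins that the finished cell does not keep. Ube2o acts as E2 and E3 in a single chain and is known in mouse reticulocytes for tagging ribosomal proteins and unpaired alpha globin. Ube2l6 conjugates ISG15, a ubiquitin-like protein induced by interferon. Ube2h works with the CTLH ligase complex, which is active in red cell maturation. Ube2r2 is a relative of Cdc34 that extends ubiquitin chains on substrates of SCF cullin ligases, and Ube2e3 belongs to the small UBE2E family.

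The reticulocytes came from adult male C57BL/6J mice and were cultured for 0, 12 or 24 h before RNA extraction. Wild type has 3 arrays and mutant 5 at each time, 24 in 6 groups. Which gene is mutated, and by what allele or promoter, is not stated in the labels, so the genotype could not be checked at the targeted gene. The design text calls the arrays biological replicates.

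The genes lie on 4 mouse chromosomes of the GRCm38.p6 assembly, as annotated by RefSeq. Ube2e3 lies at chr2:78868236-78928786, Ube2l6 at chr2:84798828-84810003, Ube2r2 at chr4:41136021-41193370, Ube2h at chr6:30211289-30304539 and Ube2o at chr11:116537740-116581503. The windows around the transcription start of Ube2l6 (chr2:84798578-84798877, plus strand) and Ube2r2 (chr4:41135771-41136070, plus strand) are shown because these genes had opposite quantile-normalized changes over 24 h of culture, though that of Ube2l6 depends on the scaling. Each window, from RefSeq on GRCm38.p6, holds 300 bases read 5′ to 3′, with matches to 2 motifs in capitals.
Ube2l6: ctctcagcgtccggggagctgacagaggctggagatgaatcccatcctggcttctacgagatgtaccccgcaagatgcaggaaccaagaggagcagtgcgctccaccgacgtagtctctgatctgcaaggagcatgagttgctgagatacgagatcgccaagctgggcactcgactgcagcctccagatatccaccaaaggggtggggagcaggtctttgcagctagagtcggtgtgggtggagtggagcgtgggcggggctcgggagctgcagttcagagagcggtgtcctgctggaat
Ube2r2: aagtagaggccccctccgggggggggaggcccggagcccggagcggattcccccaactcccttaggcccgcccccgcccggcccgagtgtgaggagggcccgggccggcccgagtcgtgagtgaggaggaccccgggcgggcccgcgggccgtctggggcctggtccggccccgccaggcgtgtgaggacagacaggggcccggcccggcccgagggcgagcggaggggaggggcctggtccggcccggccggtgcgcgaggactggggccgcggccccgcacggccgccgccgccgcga
The letters AGATAA, a core bound by GATA factors, and the core of the interferon-stimulated response element, GAAA followed by any 2 bases and a second GAAA, were searched on both strands. They do not overlap each other. These letters matched at 0 places in both windows, and they are present in 11.2% and 3.44% of the 32851 promoter windows in the table. Ube2h windows, not shown, were searched as well. AGATAA matched at 1 place at chr6:30243754-30244053, and neither motif matched at chr6:30304490-30304789. Ube2o and Ube2e3 had no window. The Ube2r2 window has 81.7% G and C and 39 CpG dinucleotides, and the Ube2l6 window has 59.7% and 15. The median over all windows is 52.7% G and C.

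Few probes stood above background, and more did so on the mutant arrays. A probe was called detected where its detection p was below 0.01. The share of probes detected on an array was 2.17 to 4.62% in wild type at 0 h, 4.92 to 6.62% at 12 h and 6.93 to 7.72% at 24 h. In mutant it was 3.60 to 17.0%, 12.97 to 28.8% and 10.2 to 18.3% at the same times. Arrays at 0 h had a median raw intensity of 132 to 298 and those of 12 and 24 h one of 38.7 to 44.7, so raw values are set beside each other only within a time or between 12 and 24 h. Red cell markers Hba-a1, Alas2 and Slc4a1 were detected on all 24 arrays, Tfrc on 6 of 8 arrays at 0 h and all 16 later ones, Ank1 on 0 of 8 and 16 of 16, and Ermap on 0 of 8 and 10 of 16. Epb42 was detected on 0 of 24.

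Markers of other blood cells moved with genotype. Of 10 listed B cell genes 9 had a probe and 8 were tested, and 8 were higher in mutant at 0 h, 8 at 12 h and 1 at 24 h. Their summed normalized intensity over 9 genes was 347 to 1142 on wild-type and 2165 to 7579 on mutant arrays at 0 h, 1132 to 1602 and 2584 to 7754 at 12 h, and 774 to 1309 and 1142 to 2720 at 24 h. Of 7 neutrophil markers tested (9 listed) 5, 4 and 2 were higher in mutant at 0, 12 and 24 h, and at 0 h their sum was 696 to 1995 on wild-type and 3034 to 11508 on mutant arrays. Of 8 platelet markers tested (8 listed) 6, 6 and 1 were higher, with sums of 230 to 768 and 1468 to 2745 at 0 h. Of 4 T cell markers tested (7 listed) 3, 3 and 1 were higher and 1 was lower at 12 h, and of 4 monocyte markers (7 listed) 1, 3 and 1 were higher. No wild-type array at 0 h detected 5 of 9 B cell, 7 of 9 neutrophil, 6 of 8 platelet, 5 of 6 T cell and 3 of 4 monocyte genes with a probe. For mutant these were 1, 4, 2, 2 and 2. Cd37 and Cd14, the B cell and monocyte genes higher at 24 h, were not detected on any wild-type array. They passed the filter through mutant arrays. Of 6 red cell markers tested (10 listed, 7 with a probe) 1 was higher and 1 lower at 0 h, 3 and 1 at 12 h, and 1 and 1 at 24 h. For scale, 32.2, 34.1 and 9.35% of all tested probes were higher in mutant and 7.62, 15.8 and 8.65% lower at 0, 12 and 24 h. A probe was tested if detected on any 3 arrays, which mutant arrays alone could meet. How far this raised the shares higher in mutant was not tested. The share of these cells in the genotype differences given below was not tested. Total RNA cannot tell fewer reticulocytes on an array from less of a transcript in each of them.

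The enzymes did not move as a block. Ube2o was lower in mutant at every time and Ube2e3 at 12 and 24 h, Ube2l6 was bright in all groups and differed less with genotype, and Ube2r2 went from not detected at 0 h to detected in both genotypes. Of the 5 probes, 1 was higher and 3 were lower in mutant at 0 h at an adjusted p below 0.05 (limma, Benjamini-Hochberg over 6312 probes), where 39.8% of all tested probes passed, 32.2% higher and 7.62% lower. Both Ube2e3 probes, which are not independent, are among the lower ones at each time. Their calls at 0 h were lost without wild-type array 1. At 12 h 3 probes were lower and 0 higher, against 15.8% lower, 34.1% higher and 50% in either direction over all probes. At 24 h 4 were lower and 0 higher, against 8.65% lower, 9.35% higher and 18% in either direction. Between genotypes the groups of 21.6% of all tested probes did not overlap at 0 h, of 59.4% at 12 h and of 38.6% at 24 h. The median difference over all tested probes was 0.24, 0.29 and 0.17 log2 units at 0, 12 and 24 h.

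**Figure D1:**
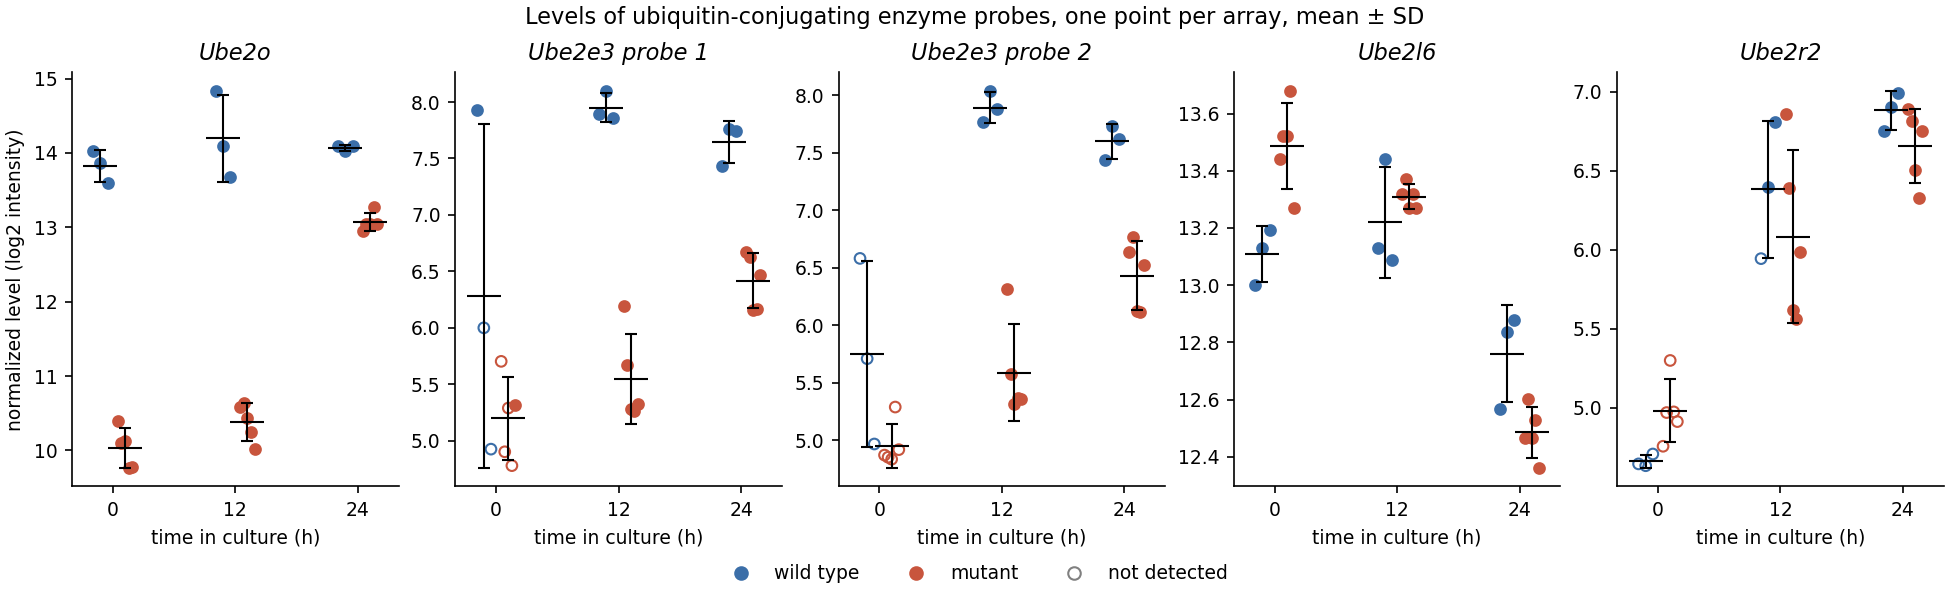
Normalized level (log2 intensity) of each of the 5 probes against time in culture, 1 point per array, with the mean and SD of each group as black bars and open points for arrays on which the probe was not detected. Ube2o and both Ube2e3 probes lie lower in mutant at 12 and 24 h with no overlap, while Ube2l6 falls to its lowest group means at 24 h and Ube2r2 is open in all 8 arrays at 0 h.

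Ube2o was the enzyme with the largest genotype difference of the 5 probes at each of 0 and 12 h. Its probe (ILMN_1245815) was detected on 24 of 24 arrays, and the standard error over its 22 to 55 beads was 1.52 to 3.79% of the signal. At 0 h the raw intensity was 9658, 7132 and 6693 on the wild-type arrays and 1253, 988, 1518, 1218 and 1560 on the mutant arrays. Every wild-type array was brighter than every mutant array. The mean normalized level was 13.83 ± 0.22 (SD, n = 3) in wild type and 10.03 ± 0.26 (SD, n = 5) in mutant on the log2 scale. The difference of -3.80 ± 0.19 (SE), 13.9-fold lower in mutant, had an adjusted p of 1.8e-13.

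On the quantile-normalized scale the gap was as wide after 12 h of culture. Raw intensities were 31424, 23192 and 15965 in wild type and 1181, 1201, 1676, 1799 and 974 in mutant, again with no overlap. The normalized means were 14.20 ± 0.58 and 10.38 ± 0.25, a difference of -3.82 ± 0.19 (14.1-fold lower, adjusted p = 1.7e-13). Wild-type array 1 was the brightest of its group.

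By 24 h Ube2o in mutant had risen towards the wild-type level without reaching it. The wild-type arrays read 21148, 18536 and 17384, and the mutant arrays 8465, 8246, 10414, 12333 and 9656. The groups still did not overlap. The means were 14.07 ± 0.040 and 13.07 ± 0.12, a difference of -0.996 ± 0.19 (1.99-fold lower, adjusted p = 0.00062).

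Within the mutant, Ube2o changed by 0.35 ± 0.16 from 0 to 12 h (adjusted p = 0.10) and rose by 2.69 ± 0.16 from 12 to 24 h (6.44-fold, adjusted p = 4e-11). From 0 to 24 h the rise was 3.04 ± 0.16 (8.22-fold, adjusted p = 2.6e-12). The corresponding wild-type differences were 0.37 ± 0.21, -0.13 ± 0.21 and 0.24 ± 0.21, with adjusted p of 0.16, 0.86 and 0.37. The change from 12 to 24 h differed between genotypes by 2.82 ± 0.27 (adjusted p = 6.2e-07), and Ube2o was the 1 probe of the 5 that passed this test, which 1.47% of all probes passed, 1.05% with the mutant change higher and 0.428% with it lower. Between 12 and 24 h the summed B cell markers of the mutant arrays ranged over 2584 to 7754 and then 1142 to 2720, and the summed red cell markers over 68507 to 76818 and then 79646 to 86620. Their part in the rise was not tested. From 0 to 12 h the genotypes' changes differed by -0.020 ± 0.27 (adjusted p = 0.98). Over 26 alternatives this value ran from -2.08 to 0.30, turned direction in 7 and gained a call in 1. Whether the gap widened from 0 to 12 h therefore depends on the processing.

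In order, the group means of Ube2o ran from wild type at 12 h, 24 h and 0 h to mutant at 24 h, 12 h and 0 h. The 3 wild-type groups did not pass the test against each other, nor did mutant at 12 h against 0 h, while the mutant arrays at 24 h lay below every wild-type array and above every other mutant array. The wild-type steps depend on how arrays are scaled. Median centring gave a wild-type change of 1.51 from 0 to 12 h (adjusted p = 0.00013), and the values as processed by the authors gave 2.96 (adjusted p = 4.4e-06). From 0 to 24 h they gave 1.87 and 3.62. The genotype differences at the 3 times and the late rise in mutant kept their direction and passed the test in every alternative run.

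The rank of the Ube2o signal among the 25697 probes of its own array needs no scaling between arrays. Quantile normalization sets each level from this rank, so the ranks restate the normalized levels and are not a separate check of them. Counted from the brightest probe, it was 14, 16 and 20 in wild type at 0 h, 3, 13 and 19 at 12 h and 13 to 14 at 24 h. In mutant it was 154 to 209 at 0 h, 138 to 185 at 12 h and 25 to 31 at 24 h. The ranks of the genotypes did not overlap at any time.

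**Figure D2:**
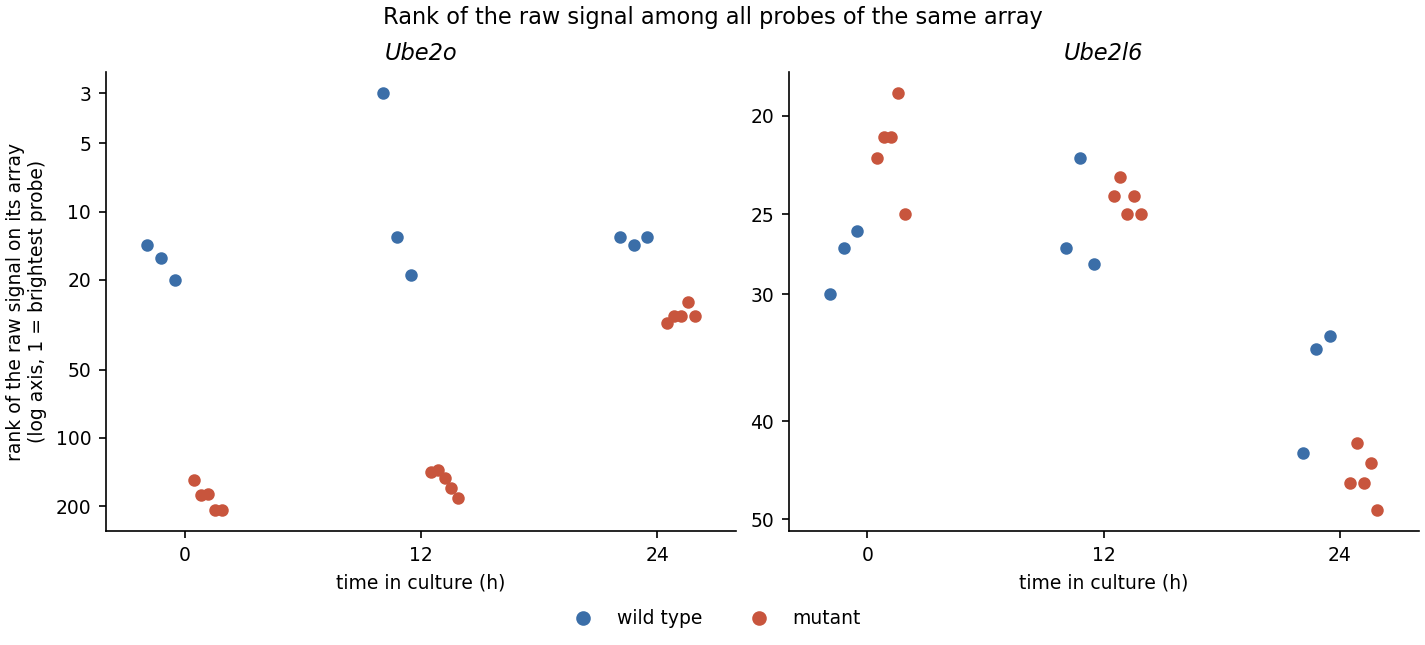
Rank of the raw signal of Ube2o (left) and Ube2l6 (right) among all probes of the same array, on a log axis with 1 for the brightest, 1 point per array by time in culture. Mutant Ube2o moves from ranks of 138 to 209 at 0 and 12 h to 25 to 31 at 24 h, and Ube2l6 drops to ranks of 33 to 49 in both genotypes at 24 h.

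Ube2e3 was lower in mutant at 12 and 24 h on both of its probes. The first (ILMN_2512042) was detected on 18 of 24 arrays and the second (ILMN_2512043) on 16, none of them at 0 h. Both probes report the same gene in the same RNA and are not independent. Their levels differed by 0.12 ± 0.36 (SD, n = 24 arrays) on average and by at most 1.35 log2 units, at 0 h.

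At 12 h the raw intensity of the first probe was 367, 277 and 171 in wild type and 72.9, 64.3, 66.8, 85.5 and 61.1 in mutant. All 3 wild-type arrays were above all 5 mutant arrays. The means were 7.95 ± 0.13 (SD, n = 3) and 5.54 ± 0.40 (SD, n = 5), a difference of -2.41 ± 0.40 (adjusted p = 6.1e-05), and the second probe gave -2.31 ± 0.28 (adjusted p = 1.2e-06).

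At 24 h the first probe read 133, 143 and 149 in wild type and 90.1, 87.8, 85.7, 104 and 92.4 in mutant, without overlap. The means were 7.65 ± 0.18 and 6.42 ± 0.25, and the difference was -1.23 ± 0.40 (adjusted p = 0.035). The second probe gave -1.17 ± 0.28 (adjusted p = 0.0055). The call of the first probe was lost in 9 of 18 alternatives, with an adjusted p of up to 0.12, the fit with the replicate number as a block among them (adjusted p = 0.059), and that of the second in 1 of 17.

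At 0 h the Ube2e3 difference rested on 1 wild-type array. The normalized levels of the first probe were 7.93, 6.00 and 4.92 in wild type, where it was detected on the first array alone, and 5.70, 4.90, 5.29, 4.78 and 5.31 in mutant, where it was detected on the last alone. The groups overlapped. The difference of -1.09 ± 0.40 had an adjusted p of 0.034, which became -0.27 (adjusted p = 0.50) without wild-type array 1. The second probe was not above background in either genotype, so no fold is given. It passed the test (adjusted p = 0.028), which was lost without the same array (adjusted p = 0.26).

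Over culture, both Ube2e3 probes passed as higher at 24 h than at 0 h in both genotypes. At 0 h the first probe was detected on 1 array of each genotype and the second on none. In wild type the first probe rose by 1.67 ± 0.45 from 0 to 12 h (adjusted p = 0.0042), and the second was at least 1.69-fold higher at 12 h than at 0 h (adjusted p = 8.9e-06), where it was not above background. Such a bound sets the bright group's mean against the lowest signals detected on the dim group's arrays. Without wild-type arrays 2 and 3 at 0 h, which leaves the array on which it was detected, the change of the first probe was 0.021 to 12 h and -0.28 to 24 h. A wild-type rise of this probe is therefore not settled. From 12 to 24 h the wild-type changes of -0.30 ± 0.45 and -0.29 ± 0.32 did not pass the test (adjusted p = 0.85 and 0.76).

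In mutant the first probe changed by 0.35 ± 0.35 from 0 to 12 h (adjusted p = 0.46) and was higher at 24 h than at 0 h (adjusted p = 0.0062). The fitted difference of 1.22 ± 0.35 rests on a 0 h mean of 5.20, with detection on 1 of 5 arrays, below the mean of the lowest detected signals there (5.93). From 12 to 24 h the second probe rose by 0.85 ± 0.25 (adjusted p = 0.012). The first gave 0.87 ± 0.35 with an adjusted p of 0.06, which became 0.039 with the replicate number as a block. For the change from 0 to 12 h, the second probe was the 1 of 5 past the test between genotypes (adjusted p = 0.012), smaller in mutant. It was not detected on any 0 h array of either genotype, so the size of this difference is not measured. Of all probes 15.8% passed, 12.7% in this direction and 3.09% in the other. The first probe gave -1.32 ± 0.57 (adjusted p = 0.12). Without wild-type arrays 2 and 3 at 0 h it was 0.33, turned in direction.

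By the first probe, the group means of Ube2e3 ran from 7.95 in wild type at 12 h and 7.65 at 24 h to 6.42 in mutant at 24 h, 6.28 ± 1.52 in wild type at 0 h, 5.54 in mutant at 12 h and 5.20 ± 0.37 in mutant at 0 h. The wild-type 0 h arrays spread over the levels of the 3 mutant groups.

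Ube2l6 was bright in every group and differed less between genotypes than Ube2o. Its probe (ILMN_2486267) was detected on 24 of 24 arrays. At 0 h the raw intensity was 3883, 4534 and 4591 in wild type and 10206, 8845, 12281, 13727 and 12612 in mutant. Every mutant array was brighter. The normalized means were 13.11 ± 0.10 (SD, n = 3) and 13.49 ± 0.15 (SD, n = 5), and the difference of 0.38 ± 0.094 had an adjusted p of 0.003. The size of this difference was 1.22 with median centring (adjusted p = 1.3e-06). On the values the authors processed it was 0.95 (adjusted p = 0.059).

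At 12 h the arrays read 17219, 14597 and 10991 in wild type and 10009, 9410, 11838, 13424 and 10353 in mutant. The groups overlapped, and the difference of 0.090 ± 0.094 did not pass the test (adjusted p = 0.43). With the authors' processed values it was -1.44 (adjusted p = 0.0069). At 24 h the arrays read 5297, 5622 and 6109 in wild type and 6009, 5795, 6727, 8162 and 6284 in mutant. The normalized levels overlapped, with means of 12.76 ± 0.17 and 12.48 ± 0.089. The difference of -0.28 ± 0.094 (adjusted p = 0.044) turned to 0.19 with median centring and lost its call in 8 of 18 alternatives, where the adjusted p over all 18 reached 0.52.

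Between 12 and 24 h the level of Ube2l6 fell by 0.46 on the log2 scale in wild type (SE 0.11, adjusted p = 0.0076) and fell by 0.82 in mutant (SE 0.082, adjusted p = 8.1e-08). Its rank among the probes of an array was 22 to 28 in wild type and 23 to 25 in mutant at 12 h, and 33 to 43 and 42 to 49 at 24 h. The ranks at the 2 times did not overlap in either genotype, which restates the quantile-normalized levels and is not a separate check. In wild type it was the 1 probe of 5 past this test, which 6.42% of all probes passed, 1.98% lower and 4.44% higher. In mutant it was the 1 probe lower and 3 were higher, against 29.8% of all probes past the test, 15.8% lower and 14% higher. With the authors' processed values the mutant change was 0.49 (adjusted p = 0.37), and the wild-type change of -0.39 did not pass (adjusted p = 0.64).

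From 0 to 24 h Ube2l6 fell by 0.35 in wild type (SE 0.11, adjusted p = 0.0086) and fell by 1.002 in mutant (SE 0.082, adjusted p = 1.5e-09). These falls rest on quantile normalization. With median centring the wild-type change was 1.001 and the mutant change -0.031 (adjusted p = 6.4e-05 and 0.87). On the authors' processed scale both were rises, of 2.72 and 1.203 (adjusted p = 3.8e-06 and 0.0043). The direction of Ube2l6 from 0 to 24 h is therefore given as unsettled. The steps from 0 to 12 h did not pass the test in wild type (0.11, adjusted p = 0.41) or mutant (-0.18, adjusted p = 0.10).

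By normalized level the groups of Ube2l6 ran from mutant at 0 h (13.49) and 12 h (13.31 ± 0.043) to wild type at 12 h (13.22 ± 0.19) and 0 h, then wild type and mutant at 24 h. The 4 groups at 0 and 12 h spanned 13.11 to 13.49 in mean, and of their neighbours in this order none passed the tests run.

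**Figure D3:**
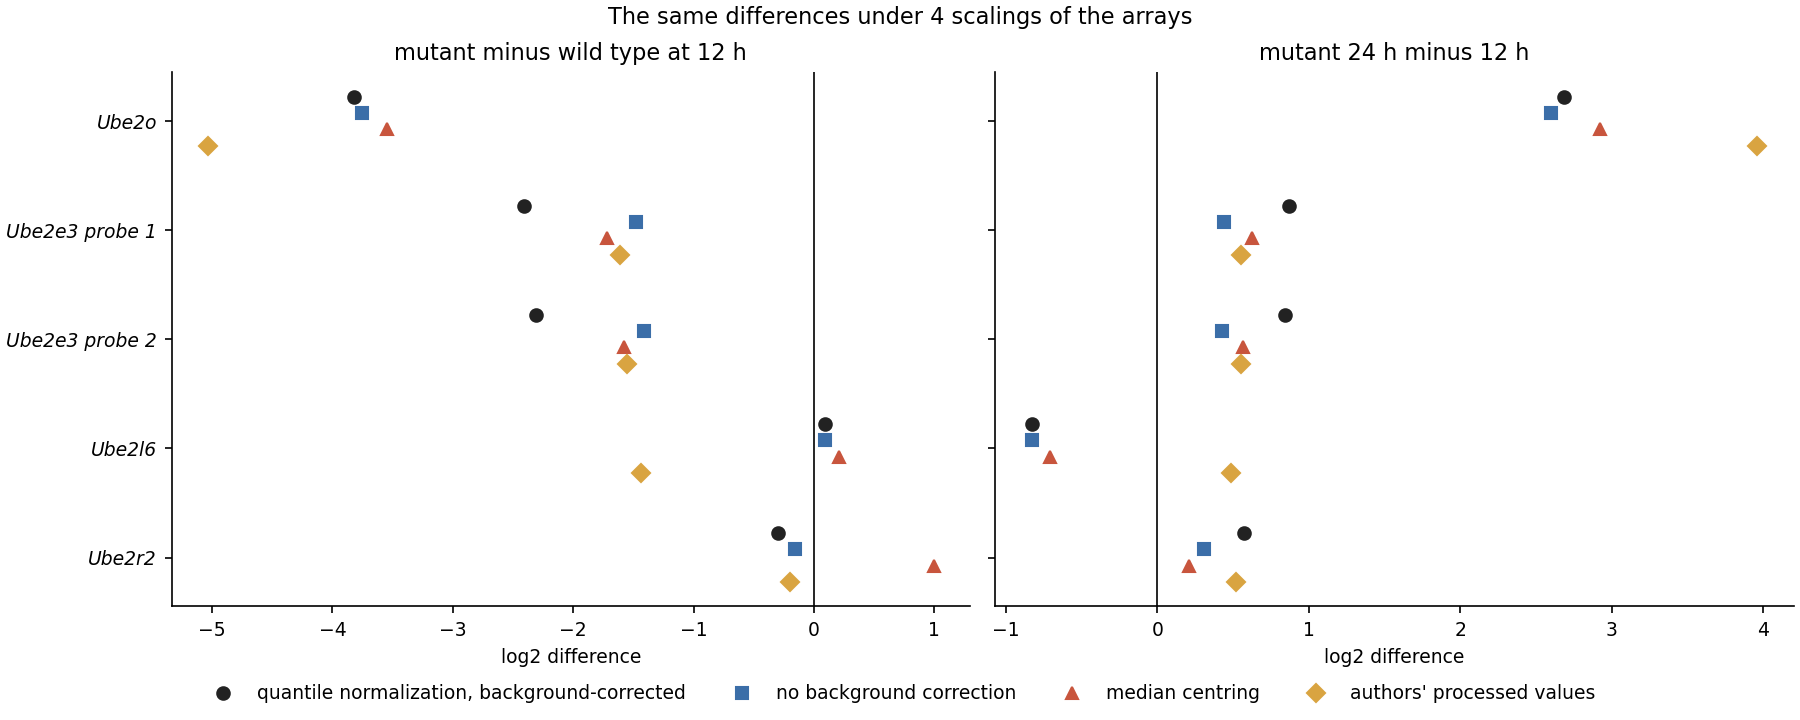
Log2 differences of each probe for mutant minus wild type at 12 h (left) and for mutant at 24 h minus 12 h (right) under 4 ways of scaling the arrays. Ube2o and Ube2e3 keep 1 direction under all 4, while Ube2l6 crosses 0 with the authors' processed values in both panels and Ube2r2 at 12 h does so with median centring.

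Ube2r2 was not detected at 0 h and was detected on most arrays later. Its probe (ILMN_1231854) was detected on 0 of 8 arrays at 0 h, on 2 of 3 wild-type and 5 of 5 mutant arrays at 12 h, and on all 8 at 24 h. At 12 h the raw intensity was 93.2, 87.6 and 88.4 in wild type and 99.4, 92.8, 90.1, 118 and 93.1 in mutant. At 24 h it was 83.3, 80.2 and 85.2 and 105, 99.8, 106, 117 and 111. These values lie near background, which was higher at 0 h.

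In mutant Ube2r2 was at least 1.11-fold higher at 12 h than at 0 h (adjusted p = 0.001) and at least 1.66-fold higher at 24 h (adjusted p = 1.3e-06). In wild type the normalized means were 4.66 ± 0.040 at 0 h, 6.38 ± 0.43 at 12 h and 6.88 ± 0.12 at 24 h (SD, n = 3), and both later times passed the test against 0 h (adjusted p = 2.8e-05 and 7.5e-07). No fold is given there, since the later means did not exceed the lowest signals detected on the wild-type 0 h arrays. From 12 to 24 h the wild-type difference of 0.50 ± 0.28 did not pass (adjusted p = 0.40), and the mutant rise of 0.58 ± 0.22 (adjusted p = 0.048) was lost in 12 of 20 alternatives.

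On the quantile-normalized scale, genotypes were not told apart by Ube2r2. At 12 h the means were 6.38 ± 0.43 and 6.08 ± 0.55 with overlap, and the difference was -0.30 ± 0.25 (adjusted p = 0.32). At 24 h they were 6.88 ± 0.12 and 6.66 ± 0.23, and the difference was -0.22 ± 0.25 (adjusted p = 0.55). With median centring these became 0.99 (adjusted p = 0.002) and 0.48. The raw intensities at 24 h also went the other way, with every mutant array (99.8 or more) above every wild-type array (85.2 or less). The direction of the Ube2r2 difference at 12 and 24 h thus depends on the scaling. At 0 h Ube2r2 was not detected on any array of either group. By mean level the order was wild type and mutant at 24 h, wild type and mutant at 12 h, and mutant and wild type at 0 h, and within each time the neighbours did not pass the test.

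**Figure D4:**
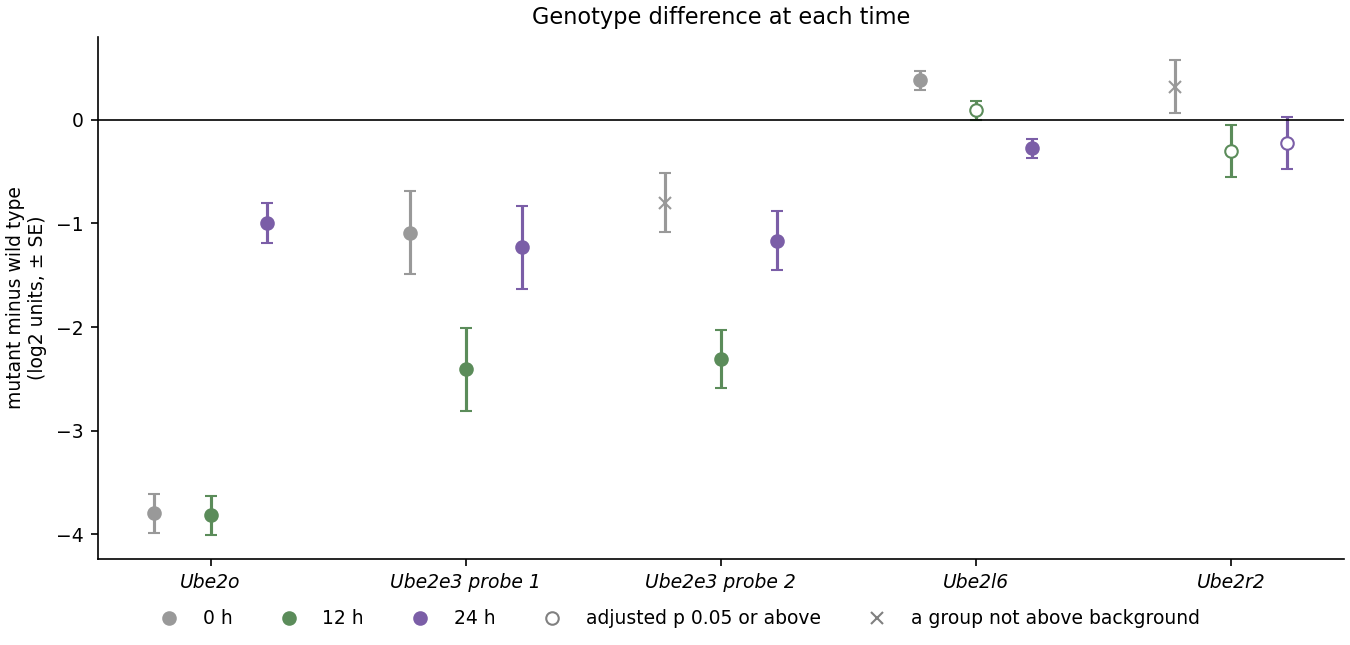
Log2 difference, mutant minus wild type, with its SE for each probe at 0, 12 and 24 h, where filled points passed an adjusted p below 0.05, open points did not and crosses mark probes not above background in a group. Ube2o lies at -3.80, -3.82 and -0.996, and Ube2e3 has its largest difference at 12 h.

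Set over time, the 5 probes gave these counts. In wild type 3 were higher at 12 h than at 0 h, where 44.6% of all probes passed (36.5% higher, 8.11% lower), and 3 were higher and 1 lower at 24 h than at 0 h, where 49.1% passed (38% higher, 11.2% lower). In mutant 1 was higher at 12 h than at 0 h, against 30.6% of all probes (26.3% higher, 4.34% lower). At 24 h against 0 h 4 were higher and 1 was lower, against 45% (31% higher, 14% lower), and all 5 probes had groups that did not overlap, as did 32.7% of all probes.

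Across the 24 arrays the level of Ube2o followed that of Ube2e3, with r = 0.81 and 0.79 for the 2 probes, and with r = 0.90 and 0.89 over the 16 arrays at 12 and 24 h. Its r with Ube2r2 was 0.37 and with Ube2l6 -0.61. The arrays fall into the 6 groups and share their scaling, so these values are descriptions of that grouping.

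The genes whose levels were most like Ube2o over the 24 arrays were Ubb-ps, named as a pseudogene of ubiquitin B (r = 0.98), the adiponectin receptor Adipor1 (r = 0.98) and Psmd4, a ubiquitin receptor of the proteasome (r = 0.97), out of 5917 named probes compared. Psmd4 had mean levels of 11.73, 11.54 and 11.87 in wild type at 0, 12 and 24 h and of 9.30, 9.16 and 11.17 in mutant. A probe named for Ubb-ps may read Ubb as well, so which of them it measured is uncertain. Most like Ube2e3 were Tceal8 (r = 0.97), the heme-binding protein Hebp1 (r = 0.96) and the retinoblastoma gene Rb1 (r = 0.96). Most like Ube2l6 were the phosphatase Ptp4a2 (r = 0.89), Rnu6 (r = 0.89) and Fam220a (r = 0.88), and most like Ube2r2 were 4833439L19Rik (r = 0.97), Ubac1 (r = 0.96) and Tmem134 (r = 0.96).

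Among the other ubiquitin-conjugating enzymes, Ube2b, a mouse counterpart of yeast Rad6, was lower in mutant at 0 and 12 h. Of 28 listed genes 23 had a probe and 8 were tested: Ube2a, Ube2b, Ube2d2a, Ube2f, Ube2g1, Ube2k, Ube2q1 and Cdc34. At 0 h 3 were higher and 1 lower in mutant, at 12 h 2 and 1, and at 24 h 1 and 0, with medians of 0.35, 0.034 and 0.13. Over all tested probes 32.2, 34.1 and 9.35% were higher and 7.62, 15.8 and 8.65% lower, with medians of 0.24, 0.29 and 0.17. Ube2b was detected on all arrays, with means of 9.15 ± 0.62, 9.61 ± 0.22 and 10.66 ± 0.045 in wild type and 8.32 ± 0.26, 8.32 ± 0.34 and 9.93 ± 0.18 in mutant at 0, 12 and 24 h. The genotype difference was -0.83 ± 0.26 (adjusted p = 0.014), -1.29 ± 0.26 (adjusted p = 0.00052) and -0.73 ± 0.26 (adjusted p = 0.051).

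From 12 to 24 h Ube2b rose in wild type by 1.06 ± 0.29 (adjusted p = 0.027) and in mutant by 1.61 ± 0.22 (adjusted p = 9e-06), and the difference between these changes did not pass (0.55, adjusted p = 0.56). Ube2d2a, which serves many ligases, was higher in mutant at 12 h (0.83 ± 0.32, adjusted p = 0.037), with 1 of 3 wild-type arrays above background. At 0 h Ube2d2a, Cdc34 and Ube2q1 passed the test as higher in mutant and were not above background on any wild-type array, and no fold is given. Ube2q1 was not above background in wild type at any time and passed at 12 and 24 h as well.

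**Figure D5:**
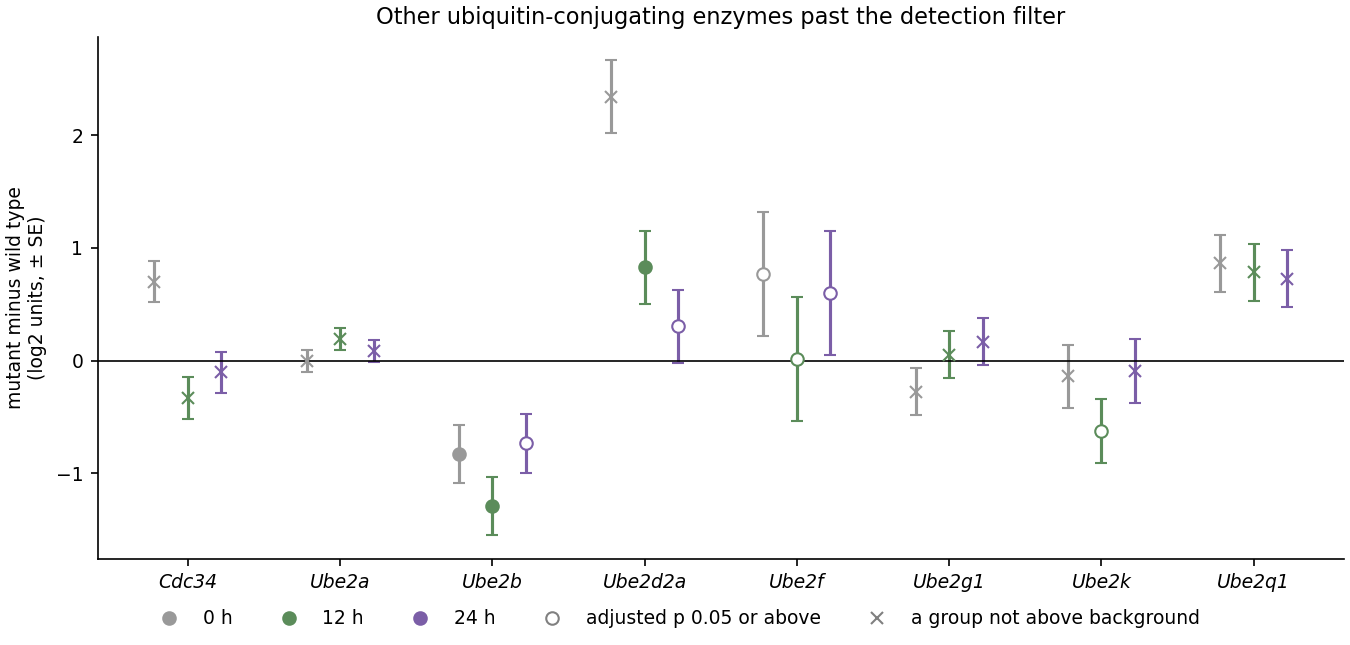
Log2 difference, mutant minus wild type, with its SE for the 8 other ubiquitin-conjugating enzymes tested, at 0, 12 and 24 h, where crosses mark genes not above background in a group. Ube2b lies below 0 at all 3 times, and Ube2d2a lies above 0 at 12 h.

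Of a list of 12 E1 enzymes and ubiquitin genes, 5 had a probe and 4 were tested. These were Uba7, the E1 of ISG15, Nae1 and Uba3, the pair that activates NEDD8, and Sae1, a part of the SUMO E1, so neither an E1 of ubiquitin nor a ubiquitin gene was tested. In mutant 3, 3 and 1 were higher at 0, 12 and 24 h and 0 were lower, with medians of 1.195, 0.93 and 0.57. The shares of all tested probes at these times were 32.2, 34.1 and 9.35% higher and 7.62, 15.8 and 8.65% lower. Nae1 and Sae1, higher at 0 and 12 h, were not detected on any wild-type array. Uba7 was at least 2.44-fold higher in mutant at 0 h (adjusted p = 5.4e-09), where it was not above background in wild type. It was higher by 0.97 ± 0.27 at 12 h (adjusted p = 0.0074) and by 1.03 ± 0.27 at 24 h (adjusted p = 0.011). Of the ISG15 pathway 5 genes were listed, 4 had a probe and 3 were tested, and at each time 1 was higher and 1 lower. Isg15 itself went the other way from Uba7, with a difference of -0.94 ± 0.32 at 0 h (adjusted p = 0.022), -0.52 ± 0.32 at 12 h (adjusted p = 0.17) and -1.15 ± 0.32 at 24 h (adjusted p = 0.014). All 3 tested genes, the ISG15 protease gene Usp18 among them, passed as higher at 24 h than at 0 h in both genotypes. So did 38% of all tested probes in wild type and 31% in mutant. Usp18 was not detected on any 0 h array of either genotype, and Uba7 not on any wild-type array at 0 h.

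All 11 listed genes of the CTLH complex, the partner of Ube2h, had a probe and 6 were tested. In mutant 3 were higher and 1 lower at 0 h, 0 higher and 3 lower at 12 h, and 0 passed at 24 h, with medians of 0.41, -0.36 and -0.16. Over all tested probes 32.2% were higher and 7.62% lower at 0 h, 34.1% and 15.8% at 12 h, and 18% passed at 24 h. Mkln1, Gid8 and Ranbp10 were the 3 higher at 0 h, and neither Mkln1 nor Gid8 was detected on any wild-type array there. Armc8, the lower one, was detected on 1 of 3 wild-type and 1 of 5 mutant arrays at 0 h. The 3 that were lower at 12 h were Rmnd5a, Maea and Gid8, with differences of -1.03 ± 0.24, -0.89 ± 0.26 and -0.71 ± 0.24 (adjusted p = 0.0018, 0.0094 and 0.021). Rmnd5a was detected there on 1 of 3 wild-type and 2 of 5 mutant arrays, so its difference lies near background. Maea was detected on 1 of 3 and 5 of 5. Other scalings were not run for these genes, so whether their directions depend on the scaling was not tested. Ranbp10, a scaffold member, rose from 12 to 24 h by 1.99 ± 0.49 in wild type (adjusted p = 0.012) and by 2.04 ± 0.38 in mutant (adjusted p = 0.00028). From 0 to 12 h 5 of the 6 passed as higher and 1 as lower in wild type, where 36.5% of all probes were higher and 8.11% lower, and 0 of 6 passed in mutant, where 30.6% of all probes did. Of the 5, all but Ranbp10 were not detected on any wild-type array at 0 h, and Mkln1, Maea and Rmnd5a were detected on 1 of 3 at 12 h.

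Of the SCF ligase genes, the partners of Ube2r2, 9 were listed, 8 had a probe and 5 were tested. At 12 h 2 were higher and 2 lower in mutant, at 0 h 1 was higher, and at 24 h 0 passed, with medians of 0.31, 0.25 and 0.032. Over all tested probes 34.1% were higher and 15.8% lower at 12 h, 32.2% were higher at 0 h, and 18% passed at 24 h. Fbxw7 and Cul1, the 2 higher at 12 h, were detected on mutant arrays at 12 h alone (3 and 4 of 5). They passed the filter through that group, so no size is given. Rbx1, higher at 0 h, was not detected on any wild-type array there. Those lower at 12 h were Btrc, a substrate receptor (-1.26 ± 0.35, adjusted p = 0.0062), and Nedd8, the modifier that switches cullins on (-1.04 ± 0.41, adjusted p = 0.039). How many markers of other blood cells were higher or lower in the same comparisons is given above, and their part in these gene group differences was not tested.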

How the data were processed

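Total RNA of reticulocytes was amplified, labelled with biotin and hybridised to 24 Illumina mouse bead arrays, per the labels' protocols. The deposited unnormalized table holds a signal intensity, its bead standard error, a bead number and a detection p-value (multiples of 1/798) for each probe. The authors' processed values, an intensity on a linear scale, follow a straight line of the raw intensity within each array. How they were made is stated in neither labels nor headers. The middle time is 12 h in the labels, which were used, and 15 h in a key by the authors.

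Of 23978 named probes 23962 matched the reference table, and 1719 had no name. Intensities were background-corrected (normexp, negative controls inferred from detection p), given an offset of 16 and quantile-normalized, then log2-transformed. Probes with a detection p below 0.01 on at least 3 arrays were tested (6312), with limma 3.58.1 (R 4.3.3) on 6 group means with an intensity trend. Each of 11 comparisons was adjusted over all these probes, with a threshold of 0.05, and the procedure was tested on simulated data. The number of arrays limits precision.

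The members and gene lists were chosen with earlier results of these data known. Named genes are all members, up to 4 genes of a list with the smallest p in a comparison, and the 3 genes most correlated with each member. Alternatives covered background, scaling, filter, weights, samples, probe choice and replicate block. They were run for the member probes and the counts over all probes, and not for list genes or markers. Residuals of same-numbered arrays correlated by 0.31 to 0.50 between 12 and 24 h in wild type and by 0.17 to 0.64 in mutant. Other pairs of groups had correlations from -0.45 to 0.40, not all above 0.1. The main tests treated all arrays as independent and did not use this pairing. In the replicate-block alternative, arrays of the same genotype and number formed 1 block over all 3 times. Its genotype tests at a single time fitted the replicate number instead. Plots were made with matplotlib 3.10.9 (Python 3.11.15).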

Additional observations from a re-analysis of the deposited data

Results flagged for a closer look

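In 3 of 15 mutant groups of a probe, 1 array stood far from the other 4, and chance flags about 1 in 20 groups. At 24 h Ube2o in mutant array 4 had a level of 13.27, where the others had 12.96 to 13.04. For the second Ube2e3 probe, mutant array 4 at 0 h had 5.29, where the others had 4.84 to 4.92 and none was detected, and mutant array 1 at 12 h had 6.32, where the others had 5.31 to 5.57. Leaving out any 1 array kept the 24 h genotype difference of Ube2o between -1.05 and -0.97.

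The genotypes differed in a change over time on 2 probes. The change of Ube2o from 12 to 24 h was larger in mutant by 2.82 log2 units (adjusted p = 6.2e-07), and over its 26 alternatives the value was 2.51 to 3.30. The change of the second Ube2e3 probe from 0 to 12 h was smaller in mutant, by -1.51 (adjusted p = 0.012), a fitted value only, since the probe was not detected on any 0 h array, and its call was lost in 3 of 25 alternatives.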

How the results depend on the processing

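Of 1049 values recomputed over 55 results, 918 kept their direction and side of the threshold, 68 lost the call, 34 gained one and 29 turned direction. The cause of these changes was not tested. No slide or chip was given, so the slide block was not run.

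Against 4 probes called at 0 h between genotypes, 2 were called with median centring, with no filter or with only the groups compared, and 1 with the authors' values or array weights. At 24 h 4 became 1 with median centring and 2 with no filter. In wild type 3 became 5 from 0 to 12 h with median centring or the authors' values. From 12 to 24 h 1 became 0 with the authors' values or only the groups compared and 2 with array weights. From 0 to 24 h 4 became 2 without wild-type 0 h arrays 2 and 3. In mutant 1 became 4 from 0 to 12 h with median centring and 2 with only the groups compared, and 4 became 2 from 12 to 24 h with 1 probe per gene. For the genotype difference from 0 to 12 h 1 became 4 with the authors' values, 2 with array weights and 0 with 1 probe per gene or without those 2 arrays. From 12 to 24 h 1 became 2 with the authors' values and 3 with array weights, only the groups compared or no 0 h arrays, a setting chosen after seeing the data. The setting with 1 probe per gene leaves out the second Ube2e3 probe. That probe was the only call for the genotype difference from 0 to 12 h, so the 0 there does not test it. It was also among the 4 called in mutant from 12 to 24 h.

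With the replicate block the mutant count from 0 to 12 h was 2 and that from 12 to 24 h was 5. The first Ube2e3 probe then had an adjusted p of 0.057 at 0 h and 0.059 at 24 h between genotypes. The block changed no other count by over 1.5 times.

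Leaving out 1 array gave 2 to 4 calls at 0 h and at 24 h between genotypes, 0 to 1 in wild type from 12 to 24 h, 1 to 2 in mutant from 0 to 12 h, and 0 to 2 for the genotype difference from 0 to 12 h. It moved the wild-type change of Ube2o from 12 to 24 h over -0.39 to 0.18, its genotype difference from 0 to 12 h over -0.28 to 0.30, and that of Ube2r2 from 12 to 24 h over -0.14 to 0.30.

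Directions turned with median centring for Ube2r2 at 12 h (0.99) and 24 h (0.48) and in both genotype differences of change (0.53 and -0.52), for Ube2l6 at 24 h (0.19), in wild type to 24 h (1.001) and in mutant to 12 h (0.68), and for Ube2o in wild type from 12 to 24 h (0.36). With the authors' values they turned for Ube2l6 at 12 h (-1.44), in wild type to 24 h (2.72), in mutant to 12 h (0.71), to 24 h (1.203) and from 12 to 24 h (0.49), and in the late genotype difference (0.88), and for Ube2o in wild type from 12 to 24 h (0.67). Array weights turned Ube2l6 at 12 h (-0.074). Leaving out wild-type 0 h arrays 2 and 3 turned the first Ube2e3 probe in wild type to 24 h (-0.28) and, from 0 to 12 h, its genotype difference (0.33) and that of Ube2o (0.17).

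The share of called probes that were higher in mutant was 80.9, 68.3 and 51.9% at 0, 12 and 24 h, 97.6, 91.8 and 84.9% with median centring. The authors' values gave 91.7, 28.2 and 79.1%. For mutant from 12 to 24 h it was 47, 18.8 and 88.8%. Median centring put the median of all probes at 0.56, 0.75 and 0.26 at the 3 times. With median centring and with the authors' scale it also moved by over 10 points for the genotype difference from 12 to 24 h (71% to 96.9% with the latter), from 0 to 12 h (19.6% to 9.65 and 6.42%), for mutant from 0 to 12 h (85.8% to 72.6% with the latter) and to 24 h (68.9% to 57.7 and 84.2%), and for wild type from 12 to 24 h (69.1% to 52.3% with the latter). Counts over all probes ranged over alternatives from 733 to 4455 at 0 h between genotypes (2515 as reported), 1531 to 5177 at 12 h (3153), 612 to 3378 at 24 h (1136), 1243 to 8451 and 1373 to 10396 in wild type from 0 h to 12 and 24 h (2817 and 3102), 167 to 1907 from 12 to 24 h (405), 895 to 4445 and 2117 to 7142 in mutant from 0 h (1934 and 2841), 1335 to 4309 from 12 to 24 h (1879), and 114 to 1898 and 49 to 2198 for the genotype differences from 0 to 12 and 12 to 24 h (997 and 93).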
